A study of Homo sapiens with 6 samples.

Results

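The genes described here encode the BCL2 proteins that hold or open the outer mitochondrial membrane: the survival proteins BCL2, BCL2L1 (BCL-XL), BCL2L2 (BCL-w) and MCL1, the pore formers BAX and BAK1, and the atypical relatives BCL2L12 and BCL2L13. They were chosen by symbol, and all 8 had FPKM values, out of 13494 genes to which the listed transcripts were summed. All 8 also passed the minimum for testing, a mean of 0.5 FPKM over the libraries, as did 12952 genes in all. RNA came from NALM6, a human B-cell precursor leukemia line in wide use, kept for 48 h with verteporfin (3 libraries) or with DMSO, the solvent (3 libraries). Verteporfin is a porphyrin known to block binding of the coactivator YAP to TEAD factors, and the study asked how genes of the Hippo pathway compare without and with it. Its concentration is printed in the labels as 0.6 mmol/L, a unit that may not be the one meant. Nothing in the labels says that the replicates were separate cultures, so the p-values speak for the variation of these libraries alone, which may be technical.

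In a living cell the survival proteins bind BAX, BAK1 and the BH3-only death activators and keep the outer mitochondrial membrane closed. When BH3-only proteins occupy the survival proteins, or act on BAX and BAK1 directly, the pore formers assemble into openings that release cytochrome c, which starts the caspase cascade. Pre-B leukemia cells are known to depend on survival proteins of this family, and MCL1 is a short-lived protein made from a short-lived mRNA. MCL1 and BCL2L1 also make short splice forms that are known to favour death, so that single transcripts matter for both.

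The long and short forms part at a splice site, and the bases there are shown because they tell which transcript is which. The sequences are from GENCODE 29 transcripts (GRCh38), read 5′ to 3′ along the coding sequence. The 30 bases that a pair shares are in lower case and the 30 bases from the first difference on are in capitals.
BCL2L1 long form, ENST00000376062: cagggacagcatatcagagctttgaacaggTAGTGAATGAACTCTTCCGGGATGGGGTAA
BCL2L1 short form, ENST00000376055: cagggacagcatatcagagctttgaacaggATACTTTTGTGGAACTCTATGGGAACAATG
MCL1 long form, ENST00000369026: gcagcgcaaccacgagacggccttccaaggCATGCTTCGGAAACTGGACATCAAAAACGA
MCL1 short form, ENST00000307940: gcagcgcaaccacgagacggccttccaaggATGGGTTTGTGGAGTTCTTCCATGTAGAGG
In BCL2L1 the short form lacks 189 exonic bases at chr20:31721655-31721843 (GRCh38, minus strand), which shortens the annotated protein from 233 to 170 residues. In MCL1 it lacks 248 bases at chr1:150578244-150578491 (GRCh38, minus strand), all of them exonic in the long form, and the annotated protein goes from 350 to 271 residues. The build behind the deposited values is uncertain, so these positions describe the annotation and not the reads.

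The libraries carried the markers of B-cell precursors that the label of the line calls for. Of 12 markers of B-cell precursors 11 had FPKM values, and their sum was 1546 to 1888 FPKM under DMSO and 1196 to 1927 FPKM under verteporfin; CD24 had no row. No marker of T cells, erythroid cells or stroma had a row, 1 of 5 myeloid markers (LYZ) summed to at most 2.56 FPKM, and 1 of 5 epithelial markers (KRT19) to at most 1.55 FPKM. Read depth is unknown, because FPKM (fragments scaled for transcript length and sequencing yield) carry no read counts. The share of transcripts listed at 0 was 14.0% to 18.7% in the DMSO libraries and 5.23% to 11.3% in the verteporfin libraries, and its part in the results was not tested.

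None of the 8 members passed the test of verteporfin against DMSO. The test was limma on log2(FPKM + 1) over 12952 genes with Benjamini-Hochberg adjustment, in which 0.0154% of all genes were called at an adjusted p under 0.05. Adjusted p values of the members ran from 0.706 (BAX) to 0.954 (BCL2L2), and 0 members had an unadjusted p under 0.05, against 8.84% of all genes. The log2 fold change (verteporfin minus DMSO) was above 0 for 7 members and below 0 for BCL2L12, with a median of 0.20 against 0.01 over all genes tested, of which 50.7% were above 0. All 8 of the 95% intervals included 0. In bulk RNA a difference in some cells and a smaller one in all cells cannot be told apart. The intervals of the members reached 0.61 to 0.98 to either side of the estimate and were not adjusted for the number of genes. With 3 libraries a group, changes below about that size were not detectable, and larger ones could go uncalled as well. In the same fit the BH3-only genes BMF and BBC3 differed by 1.85 and 1.94 on the log2 scale and still did not pass.

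**Figure D1:**
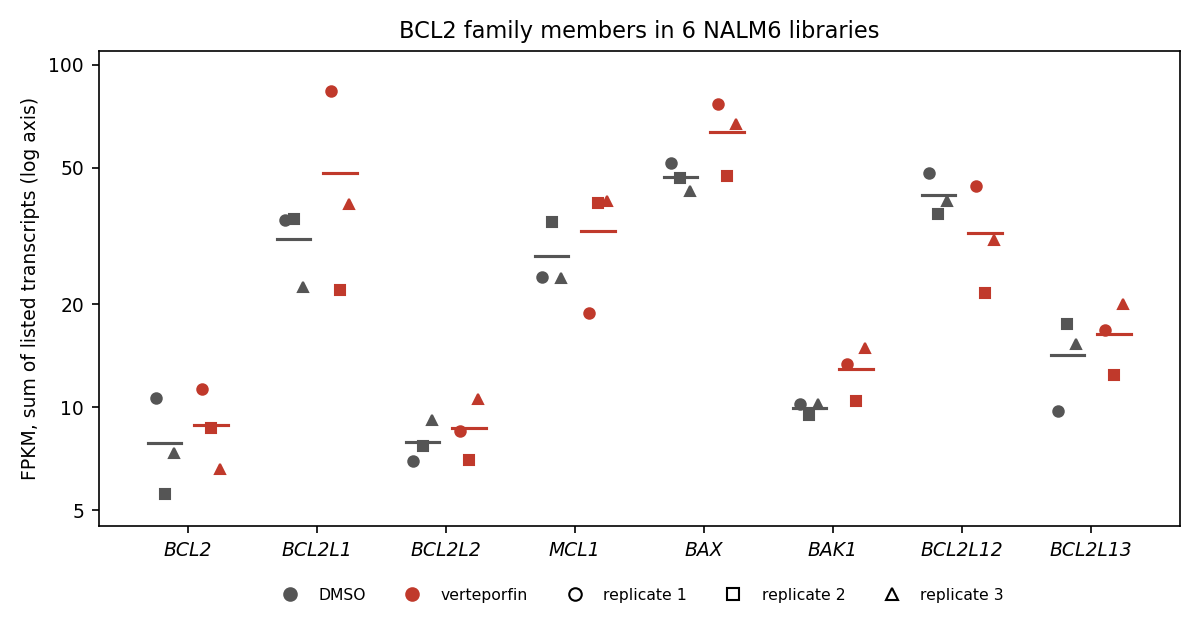
FPKM (log axis, sum of the listed transcripts) of each member in each library, with DMSO in grey, verteporfin in red, the replicate number as the symbol and the group mean as a bar. BAK1 is the 1 member whose groups do not overlap, and BCL2L1 has the widest spread under verteporfin, 21.9 to 83.9 FPKM.

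BCL2L1 and MCL1 were the most abundant of the survival genes and had the largest SDs of these under the drug. BCL2L1 (ENSG00000171552), whose long product BCL-XL binds BAX and BAK1, was at 35.1, 35.5 and 22.5 FPKM in DMSO replicates 1, 2 and 3 and at 83.9, 21.9 and 39.2 FPKM in verteporfin replicates 1, 2 and 3. The highest and the lowest of the 6 values were thus both verteporfin libraries, and the groups overlapped. The means were 31.0 ± 7.37 and 48.3 ± 32.0 FPKM (SD, n = 3). The log2 fold change was 0.45 (standard error 0.44, 95% interval -0.53 to 1.42, adjusted p = 0.808 by limma). Verteporfin replicate 1 carried it, since the log2 fold change was -0.05 when that library was left out. When verteporfin replicate 2 was left out instead it was 0.90 (adjusted p = 0.496 by limma).

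MCL1 (ENSG00000143384), the survival protein that BH3-only NOXA binds most selectively, was at 24.0, 34.8 and 23.9 FPKM under DMSO and at 18.8, 39.4 and 40.0 FPKM under verteporfin. Here verteporfin replicate 1 was the lowest of all libraries and the others of that group the highest. The means were 27.6 ± 6.24 and 32.7 ± 12.1 FPKM (SD, n = 3), and the log2 fold change was 0.19 (standard error 0.35, 95% interval -0.58 to 0.96, adjusted p = 0.92 by limma). Without verteporfin replicate 1 it was 0.53 and without verteporfin replicate 3 it was 0.01.

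These survival genes stood in opposite positions in verteporfin replicate 1 and in verteporfin replicate 2. The ratio of BCL2L1 to MCL1 in FPKM was 1.46, 1.02 and 0.941 under DMSO and 4.45, 0.557 and 0.979 under verteporfin. BCL2L1 was thus well above MCL1 in verteporfin replicate 1 and below it in verteporfin replicate 2, while no DMSO library reached either ratio. On the log2 scale the mean ratio was 0.16 ± 0.34 under DMSO and 0.43 ± 1.55 under verteporfin (SD, n = 3), a difference smaller than the spread between the verteporfin libraries.

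**Figure D2:**
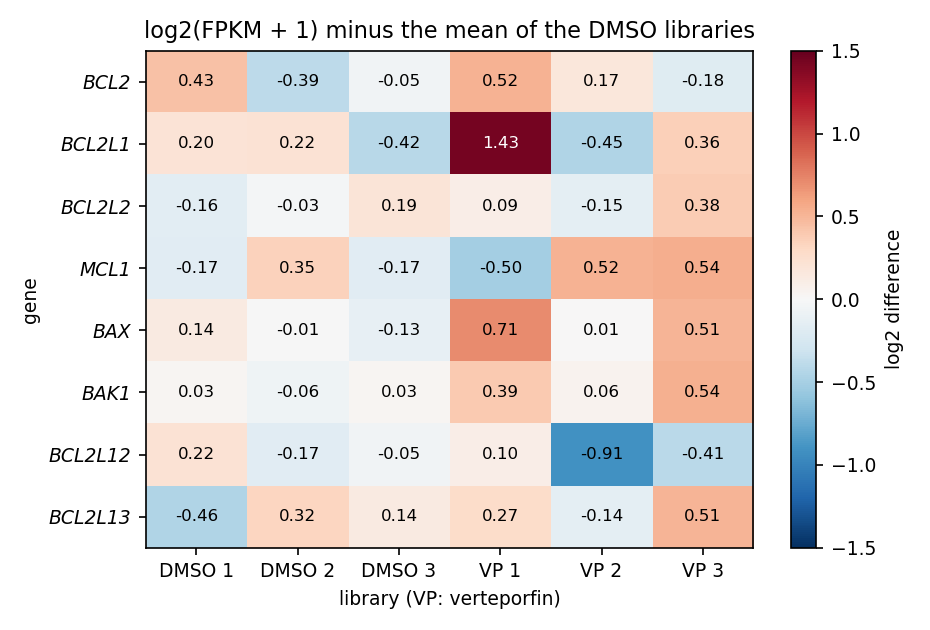
Difference of log2(FPKM + 1) of each member in each library from the mean of the 3 DMSO libraries (red above, blue below). In verteporfin replicate 1 BCL2L1 stands at 1.43 and MCL1 at -0.50, and in verteporfin replicate 2 they stand at -0.45 and 0.52.

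BCL2 and BCL2L2 were the least abundant survival genes. BCL2 (ENSG00000171791), the founder of the family and the target of venetoclax, was at 10.6, 5.58 and 7.33 FPKM under DMSO and at 11.3, 8.69 and 6.58 FPKM under verteporfin. The groups overlapped, and the log2 fold change of 0.17 (95% interval -0.61 to 0.95, adjusted p = 0.928 by limma) turned to -0.02 without DMSO replicate 2 and to -0.01 without verteporfin replicate 1. BCL2L2 (ENSG00000129473), which encodes BCL-w, was at 6.94, 7.73 and 9.15 FPKM under DMSO and at 8.49, 7.01 and 10.6 FPKM under verteporfin. It was the steadiest of the survival genes, with a log2 fold change of 0.11 (95% interval -0.59 to 0.81, adjusted p = 0.954 by limma) that turned to -0.03 without verteporfin replicate 3. A readthrough gene, BCL2L2-PABPN1, shares exons with it and was at 1.18 to 6.28 FPKM over the libraries, so that the division of reads between them is uncertain.

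The pore formers were higher on average under verteporfin, within the error. BAX (ENSG00000087088), which moves from the cytosol into the outer membrane, was the most abundant member by the sum of all listed transcripts. It was at 51.6, 46.6 and 42.8 FPKM under DMSO and 77.1, 47.2 and 67.3 FPKM under verteporfin. Verteporfin replicates 1 and 3 exceeded every DMSO library and verteporfin replicate 2 lay among them. The log2 fold change was 0.41 (standard error 0.28, 95% interval -0.20 to 1.02, adjusted p = 0.706 by limma). It ranged from 0.26 without verteporfin replicate 1 to 0.61 without verteporfin replicate 2. The BAX sum includes retained-intron transcripts that have no annotated coding sequence. The largest of these, ENST00000502487, was at 5.92 to 12.8 FPKM under DMSO and 6.42 to 14.5 FPKM under verteporfin. ENST00000513217 was at 3.33 to 4.14 and 3.83 to 5.70 FPKM. ENST00000513545 was at 1.95 to 2.21 and 1.12 to 2.31 FPKM, and ENST00000503726 at 0.730 to 1.61 and 0.739 to 1.33 FPKM.

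BAK1 (ENSG00000030110), the pore former that sits in the membrane from the start, was at 10.2, 9.51 and 10.2 FPKM under DMSO and 13.4, 10.4 and 14.9 FPKM under verteporfin. It was the 1 member whose groups did not overlap, higher in 3 of 3 verteporfin libraries, though verteporfin replicate 2 lay just above the highest DMSO value. Over all genes tested 6.49% were higher without overlap and 7.74% lower, so 1 of 8 members is near this background. The log2 fold change was 0.33 (standard error 0.30, 95% interval -0.33 to 0.99, adjusted p = 0.784 by limma).

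The atypical relatives had differences of opposite sign, both within the error. BCL2L12 (ENSG00000126453), known in glioblastoma as an inhibitor of caspases and of p53, was at 48.2, 36.7 and 40.0 FPKM under DMSO and 44.4, 21.5 and 30.9 FPKM under verteporfin. Verteporfin replicates 2 and 3 were below every DMSO library and replicate 1 was among them. The log2 fold change was -0.41 (standard error 0.31, 95% interval -1.11 to 0.29, adjusted p = 0.74 by limma), the 1 value below 0 among the members. It ranged from -0.66 without verteporfin replicate 1 to -0.15 without verteporfin replicate 2. BCL2L13 (ENSG00000099968), a mitochondrial receptor for mitophagy, was at 9.78, 17.4 and 15.3 FPKM under DMSO and 16.8, 12.4 and 20.0 FPKM under verteporfin. The ranges overlapped widely, and its log2 fold change of 0.21 (95% interval -0.52 to 0.94, adjusted p = 0.892 by limma) turned to -0.02 without DMSO replicate 1.

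**Figure D3:**
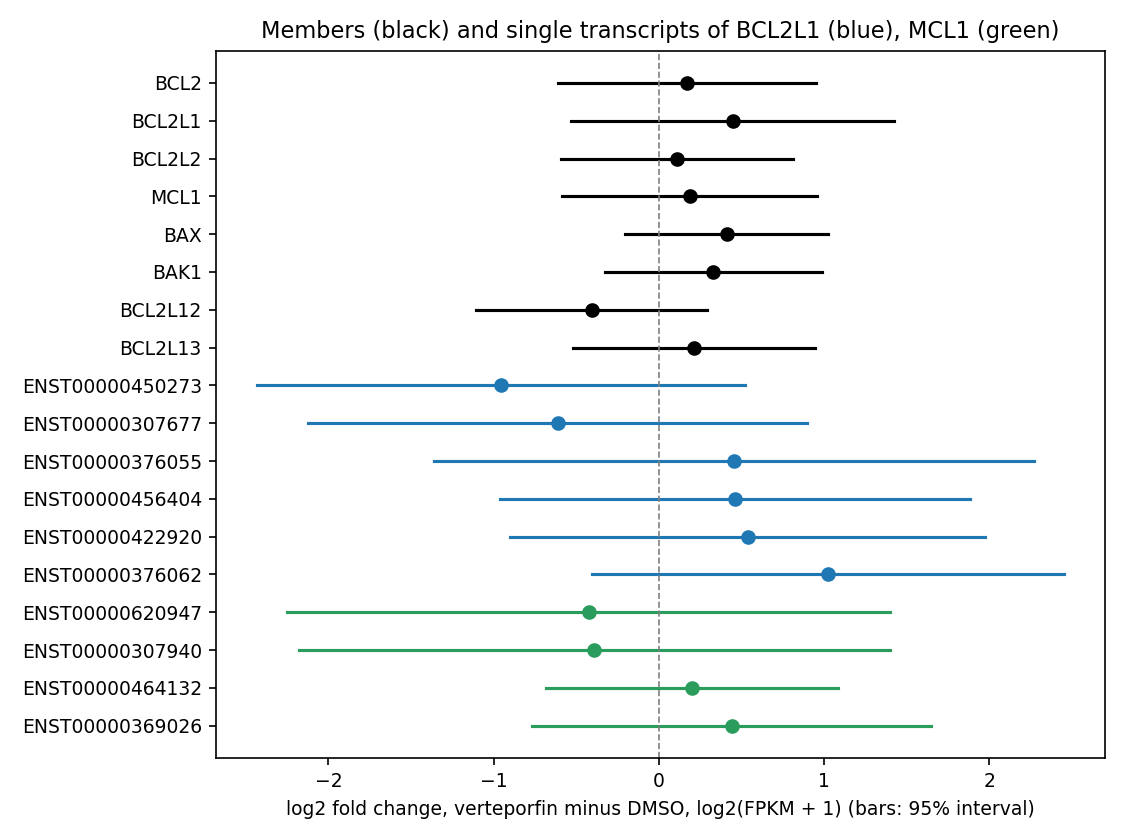
Log2 fold change (verteporfin minus DMSO, on log2(FPKM + 1)) with its 95% interval from limma for the members (black) and for the tested single transcripts of BCL2L1 (blue) and MCL1 (green). Every interval drawn includes 0, and those of single transcripts are mostly wider than those of the genes.

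By level, the order under DMSO from the top was BAX (47.0 FPKM), BCL2L12 (41.6), BCL2L1 (31.0), MCL1 (27.6), BCL2L13 (14.2), BAK1 (9.98), BCL2L2 (7.94) and BCL2 (7.84). FPKM are scaled to length, so these levels can be set side by side as sums of all listed transcripts. The sum of BAX, here and in its ratio to BCL2, includes retained-intron transcripts without an annotated coding sequence. Means of the retained-intron transcripts ENST00000502487, ENST00000513217, ENST00000513545 and ENST00000503726 were 10.2, 3.69, 2.11 and 1.15 FPKM under DMSO. Under verteporfin they were 11.3, 4.92, 1.84 and 0.981 FPKM. By coding transcripts alone BAX falls below BCL2L12 and BCL2L1 under DMSO and below BCL2L1 under verteporfin. A full order of coding transcripts was not made. Ranges of neighbours in this order overlapped for BAX and BCL2L12, for BCL2L1 and MCL1, for BCL2L13 and BAK1, and for BCL2L2 and BCL2. They did not for BCL2L12 and BCL2L1, for MCL1 and BCL2L13, and for BAK1 and BCL2L2. Under verteporfin the order was BAX (63.9 FPKM), BCL2L1 (48.3), MCL1 (32.7), BCL2L12 (32.3), BCL2L13 (16.4), BAK1 (12.9), BCL2 (8.87) and BCL2L2 (8.70), and BCL2L12 and BCL2L13 were the 1 pair of neighbours without overlap. In each of the 6 libraries BAX was above BCL2, with a ratio of 4.86, 8.36 and 5.84 under DMSO and 6.80, 5.44 and 10.2 under verteporfin, and the groups of ratios overlapped.

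By the FPKM listed, the long form was the main transcript of MCL1. How surely reads were assigned among transcripts that share exons is unknown, here and for the genes below. Levels and shares of single forms are thus estimates. Of the 4 transcripts listed, ENST00000369026, which codes for the long form, was at 9.46, 25.5 and 17.4 FPKM under DMSO and 12.8, 33.6 and 25.7 FPKM under verteporfin. It was the most abundant MCL1 transcript in each of the 6 libraries, with a log2 fold change of 0.44 (95% interval -0.77 to 1.65, adjusted p = 0.891 by limma over 55148 transcripts). The short form transcript ENST00000307940 was at 3.30, 4.18 and 0 FPKM under DMSO and 0, 1.08 and 3.75 FPKM under verteporfin, so that each group held 1 library listed at 0. ENST00000620947, with an annotated protein of 197 residues, ranged from 0.193 to 6.79 FPKM under DMSO and from 0.0963 to 3.89 FPKM under verteporfin. ENST00000464132, which has no annotated coding sequence, was the steadiest, at 3.59 to 4.90 FPKM under DMSO and 4.23 to 6.65 FPKM under verteporfin. None of the 4 passed, and their groups overlapped.

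The share of MCL1 in the long form was 39.4%, 73.3% and 72.6% of the summed FPKM under DMSO and 67.8%, 85.4% and 64.3% under verteporfin. DMSO replicate 1 stood below the other 5 libraries. The means were 61.8% ± 19.4 and 72.5% ± 11.3 (SD, n = 3), a difference of 10.7 percentage points (exact permutation test, 2-sided, p = 0.6, adjusted p = 0.9 over the 6 shares tested). DMSO replicate 1 carried it, since the difference was -0.49 percentage points when that library was left out, and it was 4.25 points without verteporfin replicate 2. The short form held 8.59% ± 7.49 under DMSO and 4.04% ± 4.82 under verteporfin (exact permutation p = 0.5, adjusted p = 0.9). This share counts ENST00000307940 alone and leaves out ENST00000620947, whose annotated protein is shorter still at 197 residues. With 3 libraries against 3 this test cannot go below 0.1.

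BCL2L1 was spread over more transcripts. Of the 8 listed, ENST00000376062 and ENST00000307677 both code for the long form. The former was at 4.33, 12.8 and 7.33 FPKM under DMSO and 35.8, 7.80 and 14.9 FPKM under verteporfin, with a log2 fold change of 1.02 (95% interval -0.40 to 2.45, adjusted p = 0.8 by limma). The latter was at 16.0, 3.43 and 2.58 FPKM under DMSO and 3.77, 4.85 and 1.70 FPKM under verteporfin, a log2 fold change of -0.61 (95% interval -2.12 to 0.90). These 2 transcripts, which encode the same annotated protein length, thus had log2 fold changes of opposite sign, and DMSO replicate 1 alone had more of the latter. Summed, the long form was at 20.4, 16.2 and 9.92 FPKM under DMSO and 39.6, 12.7 and 16.6 FPKM under verteporfin.

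The short form of BCL2L1, BCL-XS, ranged widely within both groups. Its transcript ENST00000376055 was at 1.71, 6.16 and 5.12 FPKM under DMSO and 16.0, 1.08 and 7.65 FPKM under verteporfin, a log2 fold change of 0.46 (95% interval -1.36 to 2.27, adjusted p = 0.929 by limma). Verteporfin replicate 1, with the most BCL2L1 in all, also had the most of the short form. As a share of the gene the short form was 4.86%, 17.4% and 22.7% under DMSO and 19.1%, 4.91% and 19.5% under verteporfin, with means of 15.0% ± 9.17 and 14.5% ± 8.31 (SD, n = 3). The long form held 49.2% ± 7.62 and 49.1% ± 7.83, a difference of -0.14 percentage points (exact permutation p = 0.9, adjusted p = 1). The rest lay in 5 transcripts with an incomplete annotated coding sequence, which were counted in neither form. Their annotated coding parts of 543 to 616 bases are longer than the 510 bases of the short form, so as annotated they are not that form. The largest, ENST00000422920, was at 5.48 to 9.04 FPKM under DMSO and 4.10 to 25.9 FPKM under verteporfin. ENST00000450273 was at 1.37 to 7.56 FPKM under DMSO and 0 to 2.25 FPKM under verteporfin, and ENST00000456404 reached 2.02 FPKM under DMSO and 2.86 FPKM under verteporfin. The other two were listed at 0 in every DMSO library and below the minimum for testing.

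**Figure D4:**
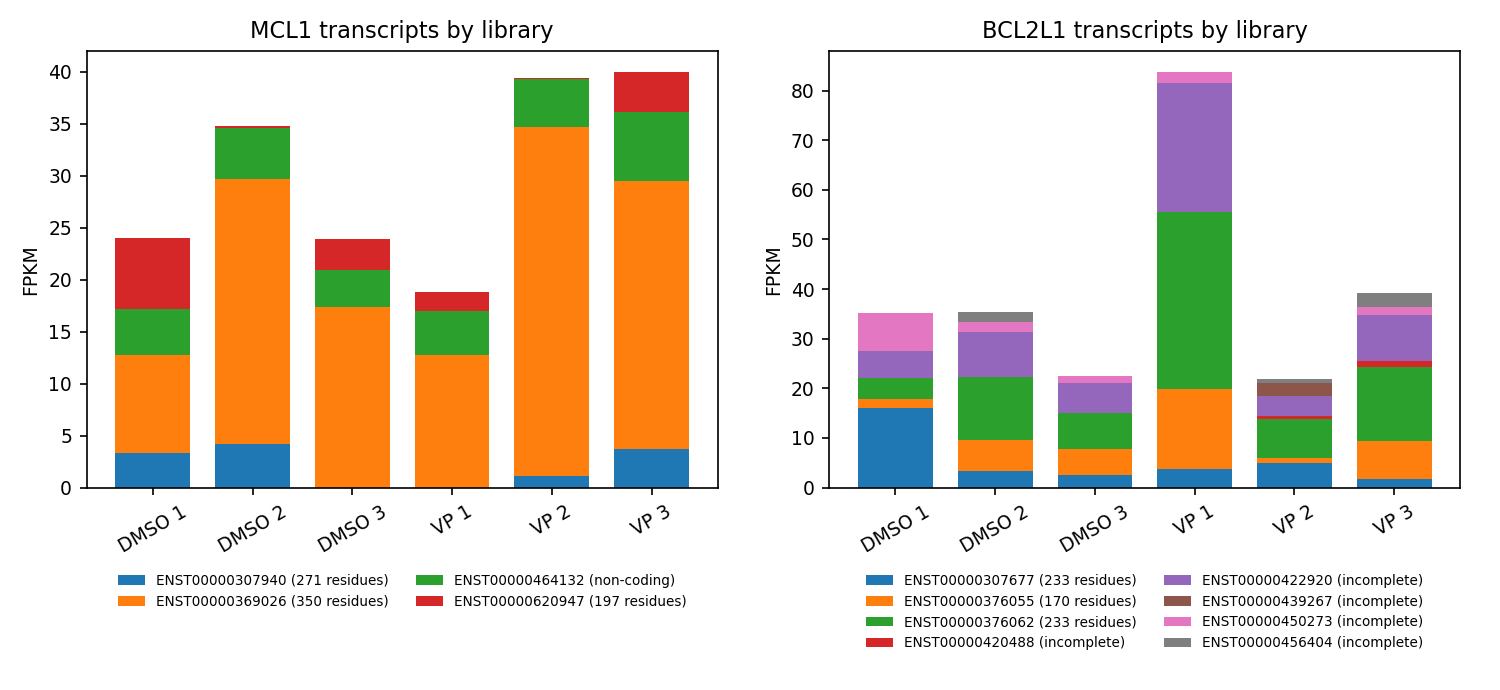
FPKM of each listed transcript of MCL1 (left) and BCL2L1 (right), stacked by library (VP, verteporfin), with the annotated protein length in the legend (incomplete, annotated coding sequence not complete). ENST00000369026, the long form, is the largest part of MCL1 in each library, while BCL2L1 divides between long, short and incomplete transcripts and is highest in verteporfin replicate 1.

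Among the transcripts of all 8 members, 51 were listed, 44 were tested and 0 passed, against 0.0308% of all transcripts. An unadjusted p under 0.05 was reached by 2 of the 44, against 6.55% of all transcripts. The groups did not overlap in 2 tested transcripts, both higher, where 5.47% of all transcripts were higher and 6.81% lower without overlap. The 1 with the smallest p was ENST00000345358 of BAX, which codes for 192 residues, the length of BAX alpha, the form known to make the pore. It was at 4.85, 3.98 and 5.71 FPKM under DMSO and 14.0, 8.09 and 10.9 FPKM under verteporfin, higher in 3 of 3 libraries. Its log2 fold change was 1.02 (standard error 0.40, 95% interval 0.10 to 1.94, unadjusted p = 0.0334, adjusted p = 0.759 by limma). ENST00000293288, the most abundant BAX transcript, with 218 residues, overlapped between groups at 12.7 to 15.7 FPKM under DMSO and 12.3 to 20.9 FPKM under verteporfin. The other transcript without overlap was ENST00000374467 of BAK1, at 10.2, 9.24 and 0 FPKM under DMSO and 13.4, 10.3 and 14.1 FPKM under verteporfin (log2 fold change 1.48, 95% interval -0.57 to 3.52, adjusted p = 0.8 by limma). The other transcript with an unadjusted p under 0.05 was ENST00000246785 of BCL2L12, at 18.2, 6.12 and 7.23 FPKM under DMSO and 8.25, 1.46 and 0.171 FPKM under verteporfin, where the groups overlapped (log2 fold change -1.80, unadjusted p = 0.0493, adjusted p = 0.759 by limma). These 3 transcripts were chosen after their values were seen. A second BCL2L12 transcript, ENST00000441864, was the more abundant on average and had a log2 fold change of 0.36.

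How the listed FPKM divided among the transcripts of a gene varied between libraries of 1 group. BAK1 was at 9.51 to 10.2 FPKM in the DMSO libraries, yet DMSO replicates 1 and 2 had 10.2 and 9.24 FPKM in ENST00000374467, with 211 residues, where DMSO replicate 3 was listed at 0. In DMSO replicate 3 nearly all of the BAK1 sum was listed under ENST00000442998, at 10.2 FPKM, with 153 residues. Gene sums of BAK1 were thus steadier than its transcripts. The part of read assignment between overlapping transcripts in this was not tested. In BCL2, ENST00000333681 was at 3.64, 0 and 3.26 FPKM under DMSO, and the 2 transcripts that code for 239 residues summed to 5.46, 2.76 and 4.40 FPKM under DMSO and 7.35, 5.88 and 3.84 FPKM under verteporfin. ENST00000589955, the most abundant BCL2 transcript under DMSO, codes for 205 residues and was at 2.82 to 5.17 FPKM under DMSO and 2.74 to 3.98 FPKM under verteporfin. ENST00000250405 carried most of BCL2L2, with 6.66 to 7.73 FPKM under DMSO and 6.44 to 9.58 FPKM under verteporfin. In BCL2L13 ENST00000317582, with 485 residues, ranged from 1.88 to 7.05 FPKM under DMSO and from 0.925 to 8.16 FPKM under verteporfin. Over all members 18 of the 51 transcripts were listed at 0 in at least 1 library.

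The genes whose levels over the 6 libraries were most like those of MCL1 were RGL1, XPO4 and ATAD5. Likeness was the root mean square difference of log2(FPKM + 1), each gene centred on its mean, over 8571 other genes whose mean reached 5 FPKM, and it was 0.0525, 0.0659 and 0.0672, against a median of 0.497. For BCL2L1 they were TMIGD2, MOB3A and ALDOC, with 0.132, 0.147 and 0.15 against a median of 0.774. Of the members, BAX was nearest to BCL2L1, at place 229 of 8571 with a difference of 0.389, and MCL1 was farthest, at place 6087 with 0.90. This is a description of 6 libraries, which share whatever sets the libraries apart.

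Around the members, the largest log2 fold changes of single listed genes were among the BH3-only genes, which encode the proteins that set BAX and BAK1 free. Of 8 tested 0 passed over all genes, 4 lay above 0 and 4 below 0 in log2 fold change, with a median of 0.49, and the groups did not overlap in 4 that were higher and 2 that were lower. Over all genes these shares were 6.49% and 7.74%. At an unadjusted p under 0.05 there were 5 of the 8, against 8.84% of all genes. The list was chosen with earlier results of these data known, so these shares are no test of it. BAD and BIK overlapped between the groups, with log2 fold changes of -0.19 and -0.34. BBC3, which encodes PUMA, was at 6.09, 4.15 and 8.27 FPKM under DMSO and 35.6, 11.8 and 39.7 FPKM under verteporfin (log2 fold change 1.94, adjusted p = 0.369 by limma). BMF, which encodes a BH3-only protein that binds the survival proteins, was at 0.985 to 1.44 FPKM under DMSO and 3.60 to 10.0 FPKM under verteporfin (1.85, adjusted p = 0.233 by limma). PMAIP1, which encodes NOXA, the partner of MCL1, was at 18.1 to 18.6 FPKM under DMSO and 20.4, 51.2 and 105 FPKM under verteporfin (1.35, adjusted p = 0.461). In verteporfin replicate 1, where MCL1 was lowest, PMAIP1 was lowest of the 3 as well. HRK, which encodes the BH3-only protein Harakiri, was at 2.17 to 2.58 FPKM under DMSO and 5.12 to 9.75 FPKM under verteporfin (1.16, adjusted p = 0.418). The 2 lower genes were BID, whose product activates BAX and BAK1 once cleaved, and BCL2L11, which encodes the activator BIM. HRK, BID and BCL2L11 were added after their values were seen. BID was at 25.3 to 37.0 FPKM under DMSO and 16.6 to 23.6 FPKM under verteporfin (-0.66, unadjusted p = 0.0432, adjusted p = 0.547), and BCL2L11 at 15.4 to 20.7 and 8.08 to 12.3 FPKM (-0.64, adjusted p = 0.572). For 5 of these 6 genes the call depended on the model. With library weights in limma the adjusted p was 0.00368 for BMF, 0.00381 for BBC3, 0.00758 for PMAIP1 (log2 fold change 2.16), 0.00878 for HRK and 0.0298 for BID, where 8.35% of all genes were called. The weights were 3.88 for verteporfin replicate 3 and 0.416 and 0.363 for verteporfin replicates 1 and 2, so that this fit leaned mostly on 1 verteporfin library. BBC3 also passed when verteporfin replicate 2 was left out (log2 fold change 2.47, adjusted p = 0.0429 by limma), where 0.0926% of all genes were called. With the replicate number as a block in limma, on all 6 libraries, BBC3 (adjusted p = 0.0263) and BMF (adjusted p = 0.0473) passed. Over all genes 84 were called in that fit. The labels do not say that equal replicate numbers belong together.

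Of 11 genes of the outer membrane and the apoptosome, the machinery downstream of the pore, 0 passed, 5 were above 0 and 6 below, with a median of -0.12 and 0 without overlap. CASP9, the initiator caspase of the apoptosome, differed by -0.85 on the log2 scale (95% interval -1.68 to -0.01, unadjusted p = 0.0472, adjusted p = 0.557 by limma) and was singled out after its values were seen. With library weights, which leaned mostly on verteporfin replicate 3, it passed, at -1.29 (adjusted p = 0.0198 by limma). VDAC2, a channel that holds BAK1 and BAX at the membrane, was at 66.2 ± 10.9 FPKM under DMSO and 57.4 ± 27.1 FPKM under verteporfin (SD, n = 3). Of 10 genes that control MCL1 protein turnover 8 were tested and 0 passed, 3 above 0 and 5 below, with a median of -0.07. HUWE1, a ubiquitin ligase of MCL1, was at 99.9 ± 9.72 and 92.9 ± 5.08 FPKM, and USP9X, which removes ubiquitin from MCL1, at 16.2 ± 4.81 and 20.7 ± 4.90 FPKM. Of 15 splicing regulators known for BCL2L1 or MCL1 0 passed, 8 above 0 and 7 below, with a median of 0.04. SRSF1 differed by -0.43 on the log2 scale (95% interval -1.40 to 0.53) and SF3B1, a core part of the spliceosome, by 0.51 (-0.46 to 1.48). In neither of the last 2 lists was there a gene without overlap or with an unadjusted p under 0.05. Of 7 further family genes BCL2A1, BCL2L10, BOK, BCL2L14 and BCL2L15 had no row, and the mitophagy receptors BNIP3 and BNIP3L were above 0 (0.52 and 0.84) with intervals that included 0.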

How the data were processed

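RNA was sequenced from 3 DMSO and 3 verteporfin libraries of NALM6 cells after a stranded KAPA preparation, per the labels' protocols. The authors deposited FPKM per Ensembl transcript, per the file headers. Per the submitters' processing notes, the build was hg18 and the tools included the aligners STAR and HISAT2 (2.1.0), StringTie (1.3.3), edgeR, cutadapt and FastQC, with no order stated. Only the 62250 entries with unique identifiers were used; 4765 further entries hold whole numbers (tolerance 0) under repeated identifiers. No listed transcript has a mean under 0.5 FPKM in both groups, so gene sums leave such transcripts out. GENCODE 29 matched 61975 transcripts; 275 (0.442%) were left out. FPKM were summed per gene.

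Genes and transcripts whose mean over the 6 libraries reached 0.5 FPKM entered limma 3.58.1 (variance trend, 2-sided, R 4.3.3) on log2(FPKM + 1), adjusted over all tested, with a threshold of 0.05. The scale understates changes of low values. Long and short forms were told apart by annotated coding length. The limma script was tested on simulated data. Tables and exact tests were made with scipy 1.17.1, numpy 2.4.6 and pandas 2.3.3 in Python 3.11.15, and figures with matplotlib 3.10.9.

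The members, lists and tests were chosen with earlier results of these data known. Named were all members, MCL1 and BCL2L1 transcripts of at least 1 FPKM in a group, the most abundant transcript of the others, up to 3 genes of each list without overlap and the 3 nearest genes of MCL1 and BCL2L1; others were chosen after their values were seen. Alternatives were other minimums, pseudocounts (0.1, 0.01), scalings, no trend, a replicate block, library weights and leaving out each library.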

Additional observations from a re-analysis of the deposited data

How the results depend on the processing

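Under all 15 alternatives of the gene test 0 of the 8 members passed, and the lowest adjusted p of a member was 0.109 (BAX, with library weights). BAX, BAK1 and MCL1 stayed above 0 and BCL2L12 below 0 in each. The library weights were 3.88 for verteporfin replicate 3 and 0.416 and 0.363 for verteporfin replicates 1 and 2. With library weights BCL2 turned to -0.14, and MCL1 (0.54), BCL2L13 (0.45) and BCL2L2 (0.27) lay over 1.5 times higher. Leaving out 1 library gave -0.0241 to 0.39 for BCL2, -0.0489 to 0.90 for BCL2L1, -0.0166 to 0.39 for BCL2L13 and -0.0285 to 0.24 for BCL2L2. Over all genes the count of 2 became 0 with pseudocounts of 0.1 or 0.01, equal medians or no trend, 84 with the replicate block, 1081 with library weights and 0 to 12 when 1 library was left out; the cause was not tested. With the block 0 members passed and 2 genes of the lists did (BBC3, adjusted p = 0.0263, and BMF, adjusted p = 0.0473, by limma), with library weights 6 (BBC3, BMF, PMAIP1, HRK, BID and CASP9), and without 1 library 0 to 1. Of 55148 transcripts 17 passed, 0 with the block and 0 whichever library was left out, and 0 were of the members in each. Equal replicate numbers (1, 2 and 3) correlated at 0.389, 0.509 and 0.0985 in their deviations from the group means, and unequal numbers at -0.464 to 0.138. Replicates 1 and 2 thus were most like the library of their own number. The labels do not say that equal numbers share a culture or a day, so the block was kept as an alternative. Differences in the shares of MCL1 and BCL2L1 forms moved by less than the spread between libraries in each alternative, but 5 of the 6 turned in sign when 1 library was left out. The MCL1 long form ran from -0.494 (without DMSO replicate 1) to 16.5 percentage points and its other forms from -13.6 to 2.46 (without DMSO replicate 1), while the MCL1 short form stayed below 0. The number of libraries limits precision; depth is unknown.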

Other observations

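Among the whole-number entries outside the FPKM values, 1 was of a member: BCL2L13 (ENST00000337612), at 2 in DMSO replicate 1 and 0 in the other 5 libraries.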
